A study of Mus musculus with 67 samples.

Results

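The comparison described here is between the hearts of hypotensive BPL and normotensive BPN mice, taken as the 5 heart arrays of BPL and the 5 heart arrays of BPN, which are 10 of the 67 arrays in the series. The series measured RNA in heart, kidney, liver and aorta of 3 inbred lines that were bred in parallel for high (BPH/2J), low (BPL/1J) or normal (BPN/3J) blood pressure. The mice were males of 12 weeks, untreated as far as the labels say, with 5 mice per strain. The study gives systolic pressures of 69 ± 1.7 mmHg for BPL, 94 ± 6 mmHg for BPN and 142 ± 5 mmHg for BPH, with the kind of error not stated. The 5 BPH heart arrays enter here through the shared estimate of spread and as values set beside the others. Each group is 1 inbred line, so every inherited difference between the lines, linked to pressure or not, is part of the comparison and cannot be told apart from pressure itself.

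The heart adapts to the pressure it pumps against. Stretch of the wall raises the natriuretic peptides, which relax vessels and promote salt loss through cyclic GMP, and a high load brings back genes of the fetal heart, thickens the sarcomere-filled muscle cells and adds matrix. Heart tissue also holds resident macrophages, mast cells, fibroblasts, endothelium and, where dissection leaves them, atrium and fat, and whole-tissue RNA sums over all of them.

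The values are array intensities on the log2 scale, so a difference of 1 is a 2-fold difference in intensity. The probes' sequences were not used here, so it was not tested whether sequence differences between the inbred lines under a probe set alter its intensity. The largest differences are therefore given as intensities, with the gene's other probe sets where those differ. A probe set, the group of probes that reads a transcript, was called where the adjusted p was below 0.05. That p came from limma over all 38385 probe sets with Benjamini-Hochberg adjustment. Over the 15 heart arrays the median log2 intensity lay close together (at most 4.72), and the mean correlation of an array with the others of its strain was at least 0.994. The first principal component, with 25% of the variance, held the 3 strains in separate ranges, and the second, with 20.4%, set BPN apart while BPL and BPH overlapped. The labels give no plate or scan batch and do not tie arrays to named mice, so the p-values measure the spread between these arrays. In bulk tissue, fewer cells of a type and less RNA per cell cannot be told apart.

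The 10 cardiomyocyte markers (among them Myh6, Tnnt2, Ttn and Mb) were the brightest list on the arrays, and their mean level was 13.61 to 13.69 in BPL and 13.63 to 13.73 in BPN. None of the 10 was called by limma (1 at an unadjusted p below 0.05), though 1 of them was called with a filter on low values, a pseudocount of 16, trended robust variances or 1 probe set per gene. BPL array 2 stood apart in the atrial markers, with a mean level of 8.90 against 9.88 to 10.11 in the BPN arrays and up to 10.13 in the other BPL arrays. BPN array 2 had the highest level in its strain for macrophage markers (7.18) and heat shock genes (10.05), and BPN array 3 the highest for MHC class I (7.94).

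In all, 3586 of 38385 probe sets (9.34%) differed between BPL and BPN hearts, 1591 higher (4.14%) and 1995 lower in BPL (5.2%). At an unadjusted p below 0.05 there were 8250. Most differences were small: the median size among called probe sets was 0.36 on the log2 scale, and 241 reached 2-fold, 107 upward and 134 downward. Named genes, each read by its brightest probe set, numbered 19147. Of these 2164 were called (11.3%), 915 higher (4.78%) and 1249 lower (6.52%), and the median difference over all of them was 0.0043. Among the 11089 named genes brighter than every array's median the share called was 17%. The pathway and marker lists, 44 in all, had 618 measured genes, of which 153 were called (24.8%), 52 higher and 101 lower, so a list's count is read against these shares. The 5 BPL arrays did not overlap the 5 BPN arrays in 3542 probe sets (9.23%).

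**Figure D1:**
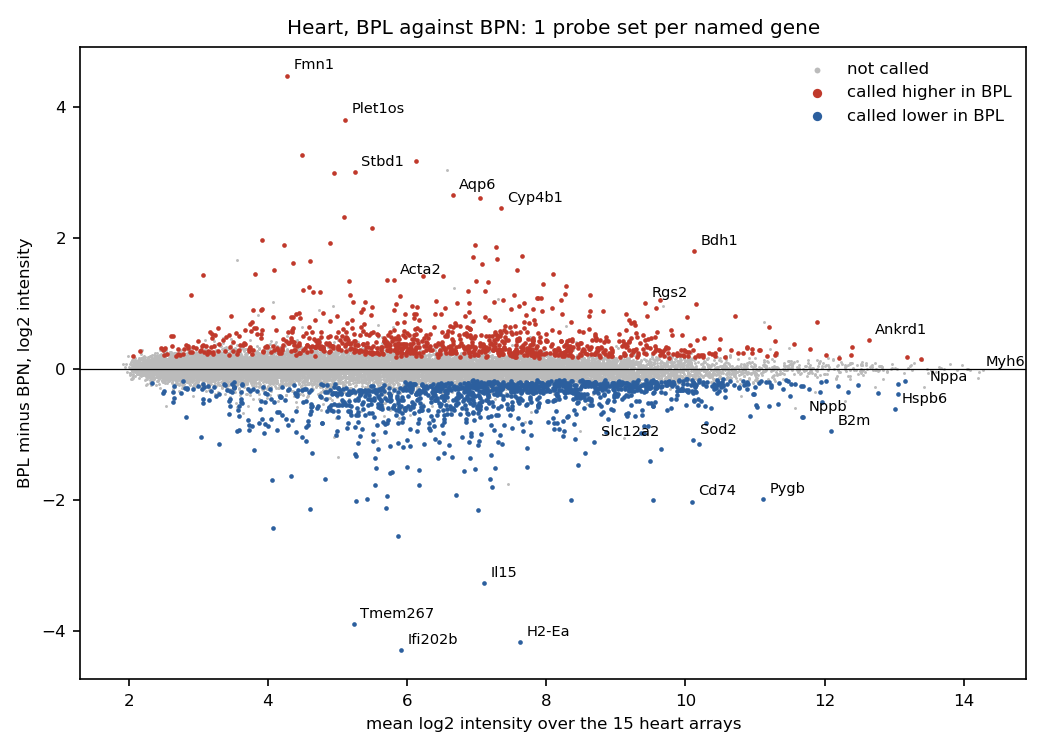
Difference between BPL and BPN hearts (log2 intensity, vertical axis) against the mean log2 intensity over the 15 heart arrays (horizontal axis), 1 point per named gene; red and blue points are the 915 genes called higher and the 1249 called lower in BPL, grey points were not called. The cloud is centred near 0, Fmn1 (4.47) and Ifi202b (-4.30) lie at its ends, and bright genes such as Bdh1, Pygb and Nppb stand clear of it.

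The natriuretic peptide Nppb, the B-type peptide of the ventricle, was lower in BPL hearts, while the A-type peptide Nppa was not called. The log2 level of Nppb was 10.94, 11.34, 11.31, 11.31 and 11.64 in BPL arrays 1 to 5 and 12.10, 11.92, 12.05, 12.18 and 12.00 in BPN arrays 1 to 5. Every BPL array lay below every BPN array, a 1.67-fold lower intensity, with a log2 difference of -0.74 ± 0.13 (SE, adjusted p = 0.000787). Nppa read 13.38, 12.57, 13.50, 13.44 and 13.50 in BPL arrays 1 to 5 and 13.54, 13.55, 13.47, 13.60 and 13.62 in BPN arrays 1 to 5. Here 4 of 5 BPL arrays sat at the lower edge of the BPN range and BPL array 2, the array low in atrial markers, lay apart, and the difference was -0.28 ± 0.14 (SE, adjusted p = 0.277), or -0.10 (adjusted p = 0.563) without that array. Npr3, the clearance receptor that removes the peptides, was also lower, at -0.50 ± 0.14 (SE, adjusted p = 0.0291); its call was lost without BPL array 2 or 5 or BPN array 1 or 5 (adjusted p up to 0.0778). Gucy1a2, a subunit of the nitric oxide receptor that makes cyclic GMP, and Prkg1, the kinase that cyclic GMP activates, differed by -0.35 and -0.24. Of the 16 measured genes of natriuretic peptide and cyclic GMP signalling, 0 were called higher and 4 lower, with a median of -0.15.

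Genes of hypertrophy and the fetal programme split. Acta2, the smooth muscle actin that the fetal and stressed heart muscle cell can express, stood at 6.89, 6.81, 6.70, 7.01 and 6.87 in BPL arrays 1 to 5 and 5.40, 5.77, 5.34, 5.34 and 5.66 in BPN arrays 1 to 5. The groups were far apart, and the level was 2.55-fold higher in BPL (1.35 ± 0.10 SE, adjusted p = 2.39e-08). Acta2 is also a marker of smooth muscle. The other 9 smooth muscle and pericyte markers held no gene called higher (Myh11 0.37, Tagln 0.18, Cnn1 0.13) and 1 called lower, Kcnj8; without BPL array 2 the whole list had 4 calls in place of 2. The part of smooth muscle in the Acta2 difference was not tested. Ankrd1, a titin-binding repeat protein that rises with mechanical stress, was also higher in BPL, at 0.44 ± 0.077 (SE, adjusted p = 0.000865). Xirp2, an actin-binding protein of the intercalated disc, read 9.82, 9.94, 9.93, 9.75 and 9.84 in BPL arrays 1 to 5 and 10.82, 10.57, 10.57, 10.74 and 10.73 in BPN arrays 1 to 5. Every BPL array lay below every BPN array, and the mean was 1.78-fold lower (-0.83 ± 0.074 SE, adjusted p = 4.9e-07). Tnfrsf12a, the receptor of the cytokine TWEAK, was lower by 1.84-fold (-0.88 ± 0.13 SE, adjusted p = 0.000141). The classical markers of fetal reversal, the slow myosin heavy chain Myh7 (-0.18 ± 0.11 SE, adjusted p = 0.409) and the skeletal actin Acta1 (-0.02 ± 0.086 SE, adjusted p = 0.916), were not called, and neither was the adult myosin heavy chain Myh6 (-0.05 ± 0.045 SE, adjusted p = 0.547). Of 19 measured genes in this list, 2 were higher and 3 lower (median -0.14); Nppa and Nppb belong to both lists.

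In the sarcomere list, 1 of 24 measured genes was called higher and 4 lower (median -0.06). Myom1, which ties myosin filaments together at the M line, read 11.55, 11.71, 11.69, 11.62 and 11.70 in BPL arrays 1 to 5 and 12.21, 12.17, 12.13, 12.16 and 12.14 in BPN arrays 1 to 5, and the arrays of the strains were separate (-0.51 ± 0.047 SE, adjusted p = 8.46e-07). Csrp3, the muscle LIM protein of the Z-disc, was equally tight within strains and lower in BPL, at -0.36 ± 0.044 (SE, adjusted p = 2.03e-05). Mylk3, the kinase of the cardiac myosin light chain, differed by -0.38 ± 0.053 (SE, adjusted p = 8.83e-05) and Myoz2, a Z-disc partner of calcineurin, by -0.23. Tnnt1, the slow skeletal troponin T, was the member that rose (0.60 ± 0.10 SE, adjusted p = 0.000546). The markers of skeletal muscle held a larger difference: Myl1, a fast skeletal myosin light chain, stood at 8.75, 7.92, 8.51, 8.35 and 8.26 in BPL arrays 1 to 5 and 10.48, 10.36, 9.98, 10.55 and 10.49 in BPN arrays 1 to 5. It was 4.03-fold lower in BPL (-2.01 ± 0.16 SE, adjusted p = 1.09e-07), and Mybpc2, the fast skeletal myosin-binding protein C, was 2.14-fold lower (-1.10 ± 0.10 SE, adjusted p = 9.55e-07). The other 9 of 11 skeletal muscle markers were not called.

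Of the calcium handling genes, 3 were called higher in BPL (Cacna1c, Cacna2d1 and Slc8a1) and 2 lower (Casq2 and Cacnb2). Cacna1c, the pore of the L-type calcium channel, read 8.17, 8.30, 8.05, 8.04 and 8.43 in BPL arrays 1 to 5 and 7.78, 7.66, 7.88, 7.67 and 7.84 in BPN arrays 1 to 5, without overlap (0.43 ± 0.076 SE, adjusted p = 0.000975). Its auxiliary subunit Cacna2d1 rose by 0.58 ± 0.075 (SE, adjusted p = 3.73e-05), and Slc8a1, the sodium-calcium exchanger that removes calcium from the cell, by 0.32 ± 0.063 (SE, adjusted p = 0.00229). Casq2, the calcium buffer of the sarcoplasmic reticulum, was lower (-0.26 ± 0.055 SE, adjusted p = 0.00453), and so was the channel subunit Cacnb2 (-0.23 ± 0.065 SE, adjusted p = 0.0304), whose call was lost without any of 5 arrays (BPL 1 or 4, BPN 1, 3 or 4; adjusted p up to 0.0832). The pump Atp2a2 (0.00, adjusted p = 0.987) and the release channel Ryr2 (0.06, adjusted p = 0.703) were not called. In all, 3 of 18 measured calcium handling genes were higher and 2 lower (median 0.04).

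Among potassium and sodium channels and conduction genes, 6 of 23 were higher and 3 lower (median 0.06). Kcnip2, the subunit that controls the transient outward potassium current, read 9.40, 9.72, 9.64, 9.63 and 9.76 in BPL arrays 1 to 5 and 8.87, 8.78, 8.90, 8.98 and 8.88 in BPN arrays 1 to 5. It was 1.68-fold higher in BPL (0.75 ± 0.072 SE, adjusted p = 1.16e-06). Kcnd2, a pore-forming subunit of the same current, rose by 0.24 (adjusted p = 0.0111), and Kcnh2, the pore of the rapid delayed rectifier, by 0.30 (adjusted p = 0.00305). Kcnj5, a subunit of the acetylcholine-activated channel, rose by 0.31 ± 0.06 (SE, adjusted p = 0.00218), while its partner Kcnj3 was lower (-0.39 ± 0.11 SE, adjusted p = 0.0252). Kcnj3 is itself an atrial marker, and its call was lost without BPL array 2 or 4 or BPN array 4 or 5 (adjusted p up to 0.0555). Scn4b, a sodium channel beta subunit, read 6.26, 6.51, 6.35, 6.04 and 6.13 in BPL arrays 1 to 5 and 7.14, 7.15, 6.95, 7.12 and 6.78 in BPN arrays 1 to 5, 1.71-fold lower in BPL (-0.77 ± 0.11 SE, adjusted p = 0.000117). Kcne1 and Gjc1 were called higher but did not keep the call without several single arrays (4 and 7 of the 15), and Kcnj8, a pore of the ATP-sensitive channel, was lower, at -0.31 ± 0.07 (SE, adjusted p = 0.0076).

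Transporters of sodium, chloride and water gave 2 higher and 2 lower among 12 measured. Slc12a2, the sodium-potassium-chloride cotransporter NKCC1 that loads cells with salt, stood at 8.08, 8.31, 8.31, 8.34 and 8.37 in BPL arrays 1 to 5 and 9.33, 9.43, 9.44, 9.43 and 9.40 in BPN arrays 1 to 5. No array of one strain came near the other, and the intensity was 2.17-fold lower in BPL (-1.12 ± 0.058 SE, adjusted p = 3.81e-10). All 3 probe sets of Slc12a2 were called lower, with differences from -1.20 to -0.87. The sodium bicarbonate cotransporter Slc4a4 was higher by 0.42 ± 0.065 (SE, adjusted p = 0.000265) and the glycerol channel Aqp7 by 0.33 ± 0.077 (SE, adjusted p = 0.0105). The salt-regulated kinase Sgk1 was lower, at -0.35 ± 0.093 (SE, adjusted p = 0.0232), a call lost without BPN array 2 (adjusted p up to 0.0669).

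Adrenergic and cyclic AMP signalling moved in 1 direction where it was called: 7 of 22 measured genes higher (31.8%) and 0 lower, although the median over the list was 0.003. Rgs2, which shortens the signal of receptors that couple to Gq and is known as a regulator of blood pressure, read 9.77, 9.74, 9.76, 9.98 and 9.83 in BPL arrays 1 to 5 and 8.74, 9.16, 8.61, 8.78 and 8.83 in BPN arrays 1 to 5. The strains did not overlap, and BPL was 1.99-fold higher on average (1.00 ± 0.092 SE, adjusted p = 7.83e-07). Adcy5, a main adenylyl cyclase of heart muscle, read 7.74, 7.87, 7.83, 7.95 and 7.68 in BPL arrays 1 to 5 and 7.10, 7.20, 7.07, 7.22 and 7.26 in BPN arrays 1 to 5, again without overlap (0.65 ± 0.062 SE, adjusted p = 1.15e-06). Ddc, the decarboxylase that makes dopamine, was 1.78-fold higher (0.83 ± 0.087 SE, adjusted p = 3.43e-06). The phosphodiesterases Pde4d (0.43 ± 0.055 SE, adjusted p = 3.29e-05) and Pde3a (0.28 ± 0.061 SE, adjusted p = 0.00514), which break cyclic AMP down, the catalytic subunit of protein kinase A, Prkaca (0.28 ± 0.062 SE, adjusted p = 0.00696), and the receptor kinase Grk5 (0.36 ± 0.076 SE, adjusted p = 0.00487) made up the rest. All 7 were called without each of the 15 heart arrays in turn.

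The renin-angiotensin list held 1 higher and 2 lower of 11 measured genes (median 0.04). Nr3c2, the mineralocorticoid receptor, was higher, at 0.34 ± 0.06 (SE, adjusted p = 0.00101). Cma1, a mast cell chymase that can make angiotensin II, was lower (-0.57 ± 0.095 SE, adjusted p = 0.000597). Angiotensinogen (Agt) read 5.44, 5.40, 5.62, 5.90 and 5.58 in BPL arrays 1 to 5 and 6.12, 5.83, 6.13, 5.70 and 6.18 in BPN arrays 1 to 5; the ranges overlapped and it was not called (-0.40 ± 0.13 SE, adjusted p = 0.072). The converting enzyme Ace (0.12, adjusted p = 0.379) and the receptor Agtr1a (0.15, adjusted p = 0.291) were not called either. Of 19 genes of endothelin, nitric oxide and vasoactive peptides, 1 was higher and 3 lower (median -0.06), and without BPL array 1, 2 or 3 or BPN array 2, 3 or 5 only 2 were called. The endothelin B receptor Ednrb was lower (-0.40 ± 0.079 SE, adjusted p = 0.00254); endothelin-1 (Edn1, -0.33 ± 0.09 SE, adjusted p = 0.0274) lost its call without BPL array 1 or 4 or BPN array 2 or 5 (adjusted p up to 0.0754).

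**Figure D2:**
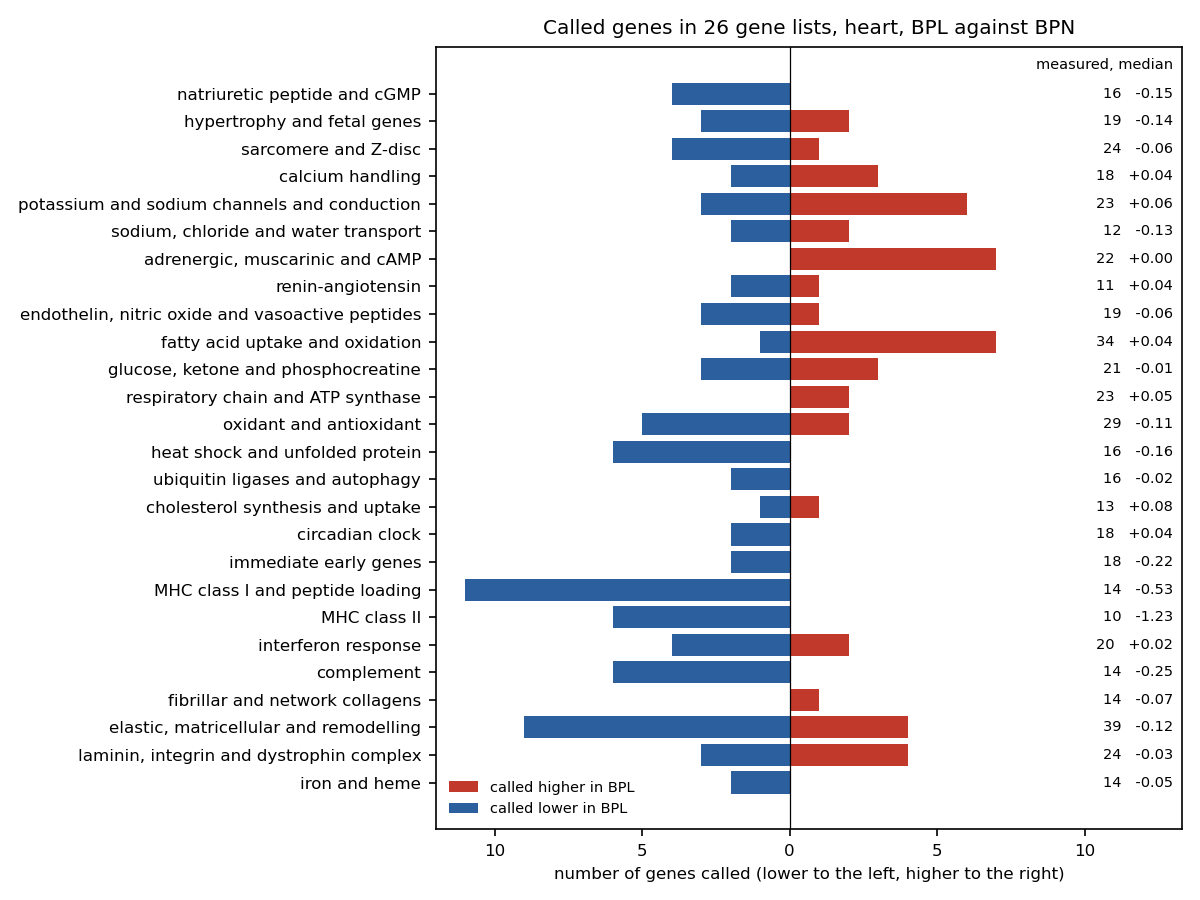
Number of genes called higher (red, to the right) and lower (blue, to the left) in BPL hearts in each of 26 gene lists, with the number of genes measured and the list's median log2 difference at the right. MHC class I (11 of 14 lower) and class II (6 of 10 lower, median -1.23) stand apart, adrenergic and cyclic AMP signalling has 7 called genes and all are higher.

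Among fuel genes, a ketone enzyme was higher and a glycogen enzyme lower in BPL, by over 3-fold each. Bdh1, the mitochondrial enzyme that converts the ketone body beta-hydroxybutyrate, read 10.73, 10.85, 10.79, 10.81 and 11.03 in BPL arrays 1 to 5 and 9.47, 8.90, 8.86, 8.91 and 9.13 in BPN arrays 1 to 5. It was 3.46-fold higher in BPL (1.79 ± 0.13 SE, adjusted p = 4.43e-08), and a second probe set gave 2.07. Pygb, the brain-type glycogen phosphorylase, read 9.74, 9.81, 9.69, 9.86 and 9.93 in BPL arrays 1 to 5 and 11.78, 11.74, 11.83, 11.81 and 11.81 in BPN arrays 1 to 5. That is a 3.97-fold lower level in BPL with almost no spread within a strain (-1.99 ± 0.053 SE, adjusted p = 3.76e-14). Hk1, the hexokinase that starts glucose use, was 1.76-fold higher (0.81 ± 0.071 SE, adjusted p = 3.53e-07), and Pdk2, a kinase that switches off pyruvate dehydrogenase, 1.52-fold lower (-0.60 ± 0.058 SE, adjusted p = 1.15e-06). Eno3, the muscle enolase, differed by -0.38 ± 0.049 (SE, adjusted p = 3.83e-05), and Oxct1, the next enzyme of ketone use, by 0.20 ± 0.054 (SE, adjusted p = 0.0227), a call lost without BPL array 2 or BPN array 3 (adjusted p up to 0.0665). In glucose, ketone and phosphocreatine metabolism 3 of 21 genes were higher and 3 lower (median -0.01).

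Fatty acid genes were called higher in 7 of 34 measured and lower in 1 (23.5% called, median 0.04). Ucp3, the muscle uncoupling protein that accompanies fatty acid use, read 7.88, 8.60, 8.24, 8.57 and 8.56 in BPL arrays 1 to 5 and 7.22, 7.50, 7.61, 7.11 and 7.40 in BPN arrays 1 to 5. It was 2.00-fold higher without overlap (1.00 ± 0.14 SE, adjusted p = 9.6e-05). Angptl4, a lipoprotein lipase inhibitor that fatty acids induce, was 2.27-fold higher (1.18 ± 0.26 SE, adjusted p = 0.00585), although its ranges overlapped: 7.22 to 8.20 in BPL and 6.01 to 7.38 in BPN. Acot1, a thioesterase (0.44 ± 0.094 SE, adjusted p = 0.00511), Plin2, a coat protein of lipid droplets (0.38 ± 0.09 SE, adjusted p = 0.0107), Ppargc1b, a coactivator of mitochondrial genes (0.33 ± 0.07 SE, adjusted p = 0.00526), and Echs1, an enzyme of beta-oxidation (0.29 ± 0.052 SE, adjusted p = 0.00114), rose by less. The receptor Ppara (-0.15, adjusted p = 0.231) and the entry enzyme Cpt1b (-0.06, adjusted p = 0.592) were not called. Slc25a20, the carnitine carrier, was lower (-0.29 ± 0.055 SE, adjusted p = 0.00192). Of the 9 adipocyte markers measured, 8 had positive differences and 2 were called; their mean level was 6.37 to 8.62 in BPL and 6.03 to 7.64 in BPN, and their part in the higher Angptl4 and Plin2 was not tested. Without BPL array 2, the array lowest in them, 4 adipocyte markers were called, and without BPL array 1, 3 or 4 or BPN array 1 or 3 only 1. The respiratory chain had 2 of 23 genes called (8.7%), Sdhc (0.33 ± 0.046 SE, adjusted p = 7.94e-05) and Sdhb, both subunits of succinate dehydrogenase; Sdhb (0.15) lost its call without any 1 of 11 arrays, leaving 1.

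Of 29 measured genes that remove or make oxidants, 5 were lower (Sod2, Srxn1, Gsta4, Cyba and Cybb, the last 2 of which belong to the oxidant-making NADPH oxidase) and 2 higher (median -0.11). Sod2, the manganese superoxide dismutase of mitochondria, read 9.76, 9.83, 9.58, 9.75 and 9.79 in BPL arrays 1 to 5 and 10.80, 10.83, 10.80, 10.87 and 10.85 in BPN arrays 1 to 5. The strains were separate by about 1 log2 unit (-1.09 ± 0.055 SE, adjusted p = 2.5e-10), a 2.13-fold lower level, while a second probe set of Sod2 differed by -0.14 and was not called. Cybb, the catalytic subunit of the phagocyte NADPH oxidase, was 1.91-fold lower (-0.94 ± 0.095 SE, adjusted p = 2.25e-06), and Srxn1, which repairs oxidised peroxiredoxins, 1.49-fold lower (-0.57 ± 0.089 SE, adjusted p = 0.000288). The metallothioneins Mt1 (0.43 ± 0.082 SE, adjusted p = 0.00216) and Mt2 (0.93 ± 0.16 SE, adjusted p = 0.000711), which bind metals, were higher. Prdx1, a cytosolic peroxiredoxin, was not called (0.05, adjusted p = 0.739).

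Heat shock and unfolded protein genes were called lower in 6 of 16 and higher in 0 (median -0.16), but the count was 2 without BPL array 3 or BPN array 1, and 3 without BPL array 1, 2 or 4 or BPN array 2. Hspb6, a small heat shock protein abundant in heart, was steady: it read 12.53, 12.64, 12.55, 12.64 and 12.62 in BPL arrays 1 to 5 and 13.21, 13.13, 13.26, 13.21 and 13.27 in BPN arrays 1 to 5, 1.54-fold lower in BPL (-0.62 ± 0.05 SE, adjusted p = 1.27e-07). Bag3, a co-chaperone that binds small heat shock proteins, was lower, at -0.34 ± 0.066 (SE, adjusted p = 0.00255). Immediate early genes, which respond within minutes to stimulation and handling, had negative differences in 14 of 18 (median -0.22), with 2 called lower; without BPN array 3 there were 6, and without BPL array 1 or 4 or BPN array 1 or 2 there was 1. Fos read 5.98, 6.63, 6.36, 5.31 and 6.68 in BPL arrays 1 to 5 and 8.52, 9.92, 5.90, 6.98 and 8.42 in BPN arrays 1 to 5, from 5.90 to 9.92 within BPN alone, and was not called (-1.76 ± 0.58 SE, adjusted p = 0.0673).

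**Figure D3:**
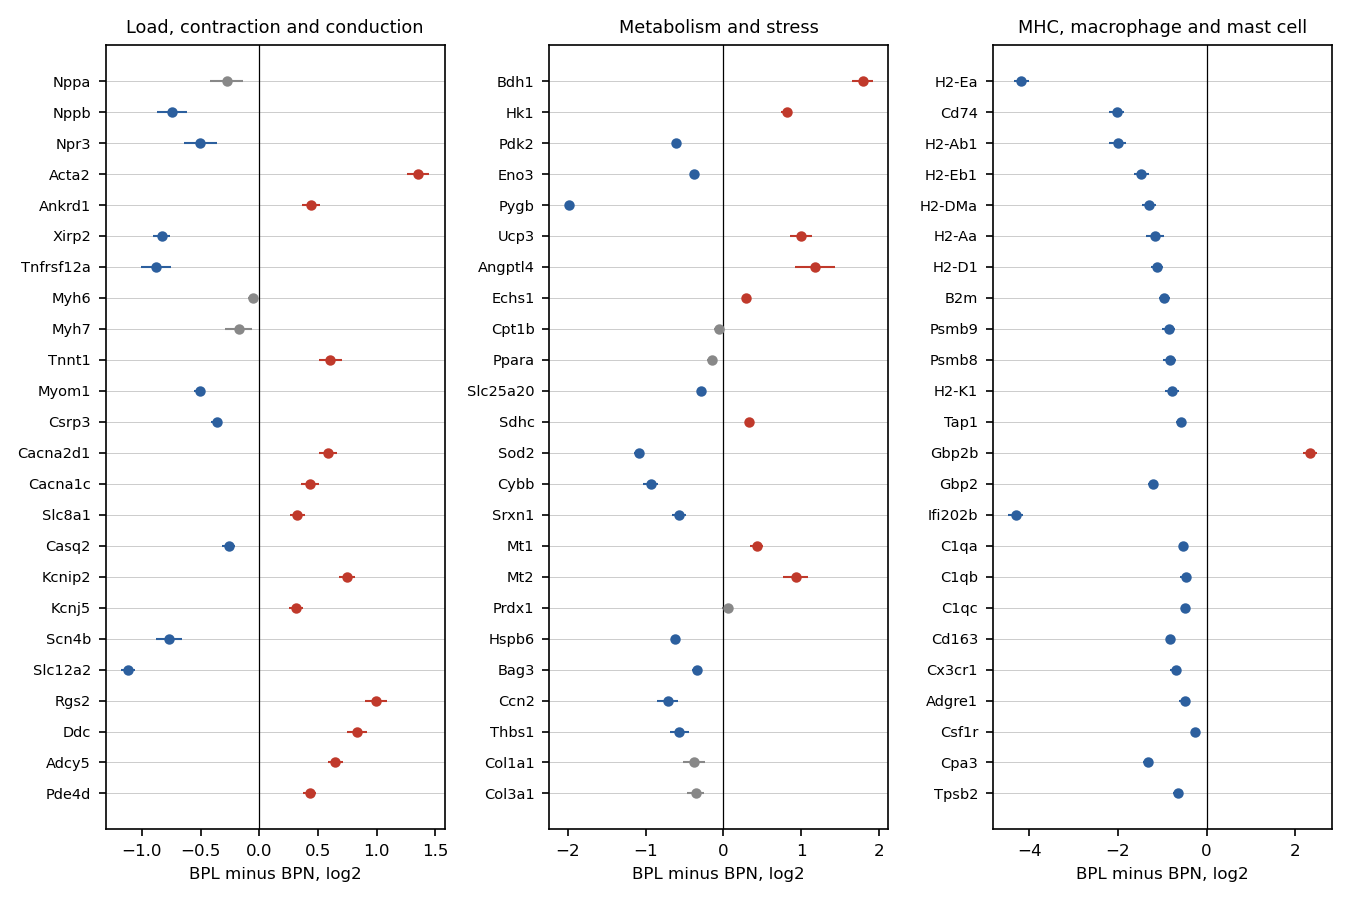
Log2 difference between BPL and BPN hearts (points) with its standard error (bars) for genes of load, contraction and conduction, of metabolism and stress, and of antigen presentation, macrophages and mast cells; red points were called higher, blue lower, grey not called, and each panel has its own scale. Acta2, Bdh1 and Gbp2b lie farthest to the right, and the called MHC genes lie to the left of 0.

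Antigen presentation held the list with the largest median difference. MHC class II molecules show peptides from outside the cell to helper T cells; alpha and beta chains pair with the invariant chain Cd74, and in the heart they mark macrophages and dendritic cells. MHC class I shows peptides from inside the cell on nearly every cell type, with the light chain B2m, the Tap transporter and the immunoproteasome. Class II had 6 of 10 measured genes lower in BPL and 0 higher (median -1.23). Class I had 11 of 14 lower and 0 higher (78.6% called, median -0.53).

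The promoters of H2-Aa, H2-Eb1 and Tap1 are shown as examples, chosen among the class II and class I genes that were lower in BPL and hold a short motif there. The sequences are RefSeq's of GRCm38.p6, from 250 bases before to 50 after the start, written 5′ to 3′ on the gene's strand. Capitals mark the Y box CTGATTGG or its reverse complement, a site known from class II promoters.
H2-Aa, chr17:34287774-34288073, minus strand: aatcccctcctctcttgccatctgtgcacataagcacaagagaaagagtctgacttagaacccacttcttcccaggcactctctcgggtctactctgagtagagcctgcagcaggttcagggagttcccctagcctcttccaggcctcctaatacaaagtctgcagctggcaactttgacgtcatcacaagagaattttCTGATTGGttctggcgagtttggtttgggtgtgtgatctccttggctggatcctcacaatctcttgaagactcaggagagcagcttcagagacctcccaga
H2-Eb1, chr17:34305617-34305916, plus strand: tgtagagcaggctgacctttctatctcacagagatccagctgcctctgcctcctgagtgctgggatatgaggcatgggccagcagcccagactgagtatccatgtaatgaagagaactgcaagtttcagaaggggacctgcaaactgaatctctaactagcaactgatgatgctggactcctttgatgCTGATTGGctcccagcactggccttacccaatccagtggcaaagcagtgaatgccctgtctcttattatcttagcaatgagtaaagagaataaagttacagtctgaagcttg
Tap1, chr17:34187306-34187605, plus strand: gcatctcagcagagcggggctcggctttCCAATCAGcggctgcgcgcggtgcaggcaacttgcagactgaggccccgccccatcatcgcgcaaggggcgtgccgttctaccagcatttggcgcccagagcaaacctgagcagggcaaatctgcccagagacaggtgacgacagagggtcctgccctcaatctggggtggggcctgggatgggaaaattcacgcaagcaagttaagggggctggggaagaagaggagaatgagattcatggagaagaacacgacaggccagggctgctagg
Searched on both strands, the Y box occurs in 1346 of 32851 RefSeq promoters of this length (4.1%), or, counted by gene, in 1271 of 27025 (4.7%). It was found in 3 of the 6 measured class II genes that have an entry (H2-Aa, H2-Eb1 and H2-Oa). Of these, H2-Oa was not called. H2-Ea, H2-Ab1, Cd74 and Ciita had no entry and were not searched. In class I it was found in 5 of 12 genes, all 5 of them lower in BPL (H2-K1, H2-D1, H2-Q7, Tap1 and Psmb9). With or without a match, 9 of these 12 class I genes and 3 of the 6 class II genes were lower. Lower genes without a match were H2-DMa in class II and H2-M3, B2m, Psmb8 and Psmb10 in class I. The windows of Tap1 and Psmb9, which are read in opposite directions, overlap by 275 bases and hold the same match. A core of the interferon-stimulated response element (GAAA, any 2 bases, GAAA) was searched likewise. It was found in 0 of the 6 class II and 2 of the 12 class I genes, B2m (lower) and Erap1 (not called). The background was 1079 of 27025 genes (3.99%) and 1131 of 32851 promoters (3.44%). Other spellings of the element were not searched, so a promoter without this match may still hold one. A match describes letters and not a bound factor.

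H2-Ea, the class II E alpha chain, read 5.30, 5.37, 5.43, 5.41 and 5.30 in BPL arrays 1 to 5 and 9.16, 10.07, 9.89, 9.39 and 9.17 in BPN arrays 1 to 5. The BPL arrays lay between 5.30 and 5.43, 18.1-fold below BPN (-4.17 ± 0.17 SE, adjusted p = 8.54e-12). H2-Ab1, the A beta chain, read 7.55, 7.25, 7.60, 7.59 and 7.68 in BPL arrays 1 to 5 and 9.11, 10.16, 9.94, 9.36 and 9.13 in BPN arrays 1 to 5, 4.01-fold lower (-2.00 ± 0.19 SE, adjusted p = 8.73e-07). Cd74 read 9.36, 8.88, 9.23, 9.19 and 9.23 in BPL arrays 1 to 5 and 10.90, 11.79, 11.47, 10.98 and 10.91 in BPN arrays 1 to 5, 4.08-fold lower (-2.03 ± 0.16 SE, adjusted p = 1.16e-07). In these 3 genes BPN arrays 2 and 3 were the highest and no BPL array overlapped BPN. H2-Eb1, with the promoter shown above, differed by -1.47 ± 0.17 (SE, adjusted p = 9.45e-06), the peptide editor H2-DMa by -1.29 ± 0.16 (SE, adjusted p = 2.23e-05), and H2-Aa by -1.16 ± 0.21 (SE, adjusted p = 0.00106). The regulators and accessory genes were not called: the class II transactivator Ciita had -0.18 ± 0.10 (SE, adjusted p = 0.319), H2-DMb1 -0.27, H2-Oa -0.00 and H2-Ob 0.13. Over the BPL and BPN arrays Ciita (3.64 to 4.14) and H2-DMb1 (3.65 to 4.52) lay below the median of every heart array (at least 4.62). That leaves little room for a decrease to show.

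In class I, the light chain B2m read 11.74, 11.67, 11.58, 11.76 and 11.66 in BPL arrays 1 to 5 and 12.49, 12.97, 12.88, 12.46 and 12.37 in BPN arrays 1 to 5. It was 1.93-fold lower in BPL (-0.95 ± 0.12 SE, adjusted p = 2.43e-05). The heavy chain H2-D1 was 2.17-fold lower (-1.12 ± 0.14 SE, adjusted p = 1.89e-05) and H2-K1 1.71-fold (-0.77 ± 0.16 SE, adjusted p = 0.00314), with both H2-K1 probe sets called lower. Class I heavy chains are close copies of each other, so a probe set can read more than 1 of them. The immunoproteasome subunits Psmb9 (-0.86 ± 0.14 SE, adjusted p = 0.000527), Psmb8 (-0.83 ± 0.15 SE, adjusted p = 0.00122) and Psmb10 (-0.49 ± 0.11 SE, adjusted p = 0.00557) and the transporter Tap1 (-0.57 ± 0.12 SE, adjusted p = 0.00399) were lower, and so was Nlrc5, a class I transactivator (-0.71 ± 0.17 SE, adjusted p = 0.0108). The strains overlapped in Nlrc5, which read 3.73 to 4.14 in BPL, below every array's median, and 3.89 to 5.04 in BPN. Tap2 (-0.28 ± 0.08 SE, adjusted p = 0.0347) and H2-Q7 (-0.40 ± 0.10 SE, adjusted p = 0.0219) did not keep their call without single arrays, BPN 2 and BPN 3 among them (adjusted p up to 0.097 and for H2-Q7 adjusted p up to 0.0642). With BPN arrays 2 and 3 both left out, 6 class II and 8 class I genes were called lower.

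Macrophage markers were lower in 8 of 13 measured (61.5%) and higher in 0, with a median of -0.47. Their mean level was 6.49 to 6.57 in BPL and 6.79 to 7.18 in BPN, so the strains did not overlap. Cd163, a scavenger receptor of resident macrophages, read 6.29, 6.23, 6.45, 6.52 and 6.57 in BPL arrays 1 to 5 and 7.17, 7.51, 7.15, 7.10 and 7.21 in BPN arrays 1 to 5, 1.76-fold lower (-0.82 ± 0.10 SE, adjusted p = 1.61e-05). The complement subunits C1qa (-0.53 ± 0.10 SE, adjusted p = 0.0012), C1qb (-0.47) and C1qc (-0.48), which macrophages make, the chemokine receptor Cx3cr1 (-0.70 ± 0.12 SE, adjusted p = 0.000801), Aif1 (-0.64 ± 0.12 SE, adjusted p = 0.00188), Adgre1 (-0.50 ± 0.12 SE, adjusted p = 0.0142) and the growth factor receptor Csf1r (-0.26 ± 0.06 SE, adjusted p = 0.00925) completed the count. Mrc1 (-0.13), Lyz2 (0.03), Fcgr1 (0.12), Ccr2 (-0.20) and Itgam (-0.19) were not called. Lyz2 read 2.11 to 2.33 over the BPL and BPN arrays, near the floor, where a decrease could hardly show. All 8 were called without each heart array in turn; with BPN arrays 2 and 3 left out together, Adgre1 and Csf1r lost the call and 6 remained. BPN array 2 also had the highest lung marker level (over the arrays 3.60 to 5.68 in BPN and 3.83 to 4.83 in BPL), led by the airway gene Scgb1a1, at 13 there and 2.29, 7.13, 5.69 and 6.30 in the other BPN arrays. Scgb1a1 read 3.04 to 10.74 in BPL. The surfactant genes Sftpd (5.18, other BPN arrays 2.91 to 3.06) and Sftpc (5.17, others 4.22 to 4.63) were also highest in BPN array 2. Cldn18 and Lamp3 lay there within the range of the other BPN arrays. None of 7 lung and none of 6 thymus markers was called by limma (0 also at an unadjusted p below 0.05). Between the strain means Sftpc differed by -0.02, which does not speak to single arrays. BPH array 5 stood apart in the thymus markers Rag1 (8.17, other BPH arrays 2.35 to 3.01), Dntt, Ccr9 and Cd8b1, but not in Rag2. Because it enters the shared spread, a difference between BPL and BPN in those it stood apart in could hardly be called. The part of macrophages, and of other tissue on the hearts, in the lower class II and class I genes was not tested.

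**Figure D4:**
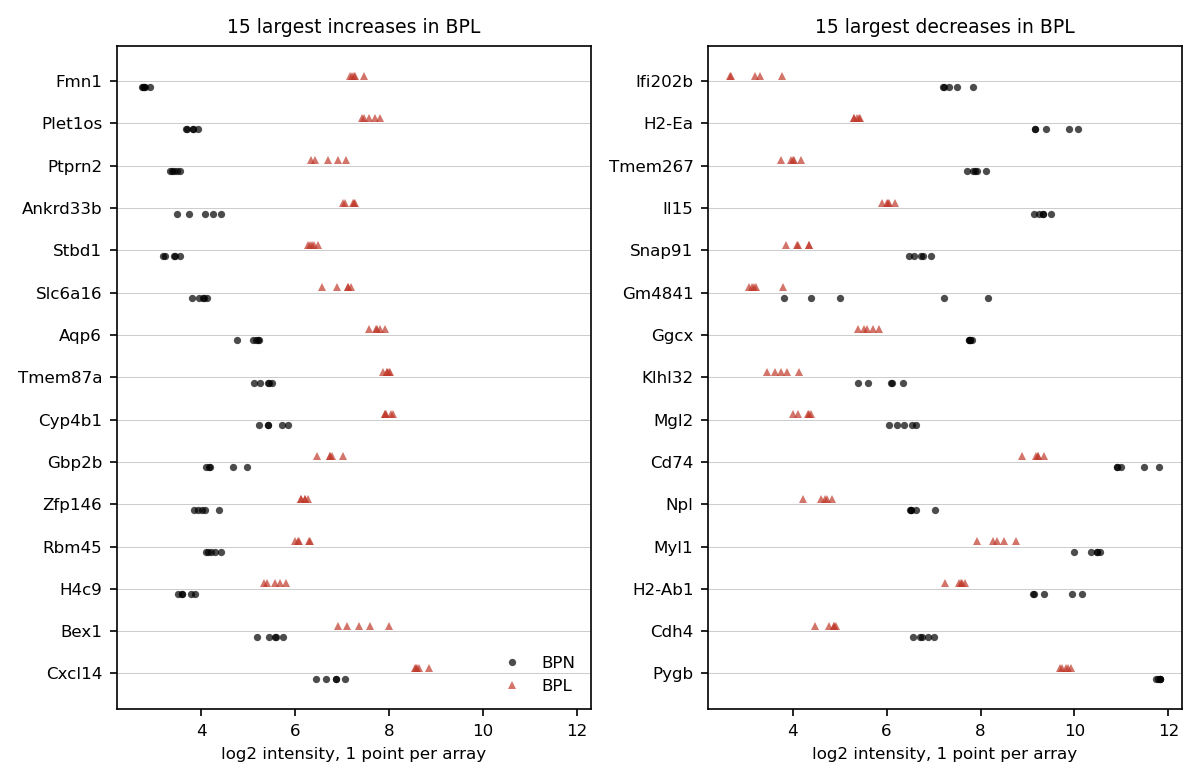
Log2 intensity of the 15 genes most increased (left) and the 15 most decreased (right) in BPL hearts, 1 point per array, BPL as red triangles and BPN as black circles. The strains are separate in every row, and the widest spread within a strain is that of Gm4841 in BPN, 3.82 to 8.16.

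Mast cell genes were lower in 4 of 7 and higher in 0. Cpa3, the carboxypeptidase of mast cell granules, read 4.32, 4.53, 4.47, 4.62 and 4.40 in BPL arrays 1 to 5 and 5.44, 5.93, 5.59, 6.01 and 6.00 in BPN arrays 1 to 5, 2.51-fold lower (-1.33 ± 0.11 SE, adjusted p = 2.18e-07), and the tryptase Tpsb2 was 1.56-fold lower (-0.65 ± 0.10 SE, adjusted p = 0.000446). The receptors Kit (-0.22), Ms4a2 (0.14) and Fcer1a (0.11) were not called. Ms4a2 (2.19 to 2.90) and Fcer1a (2.48 to 3.10) lay near the floor in the BPL and BPN arrays, where a decrease could hardly show. Mgl2, a lectin of macrophages and dendritic cells, was among the 15 largest decreases: 4.40, 4.33, 4.34, 4.01 and 4.11 in BPL arrays 1 to 5 and 6.23, 6.63, 6.54, 6.37 and 6.05 in BPN arrays 1 to 5, a 4.37-fold lower level (-2.13 ± 0.11 SE, adjusted p = 2.95e-10). Lymphocyte markers gave 1 call of 11, Klrd1, lost without any of 6 arrays (BPL 1, 3, 4 or 5, BPN 2 or 3). Their differences were negative in 10 of 11 (median -0.21), with 4 at an unadjusted p below 0.05 by limma. Without BPH array 5, which enters through the shared spread, 3 were called. That array read 8.18 for Cd3d, against 4.76 to 5.18 in the other BPH arrays. Neutrophil markers gave 0 calls of 8 by limma (1 at an unadjusted p below 0.05, and 1 called without BPN array 5).

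Interferon-response genes did not move together (2 of 20 higher, 4 lower, median 0.02). Gbp2b, a guanylate-binding protein, read 7.02, 6.73, 6.47, 6.78 and 6.74 in BPL arrays 1 to 5 and 4.11, 4.97, 4.68, 4.18 and 4.17 in BPN arrays 1 to 5, 5.00-fold higher in BPL (2.32 ± 0.16 SE, adjusted p = 1.33e-08). The related gene Gbp2 was 2.33-fold lower (-1.22 ± 0.10 SE, adjusted p = 2.76e-07). Ifi202b, a DNA-binding protein of the interferon-inducible p200 family, read 3.77, 2.68, 3.30, 2.66 and 3.20 in BPL arrays 1 to 5 and 7.22, 7.85, 7.33, 7.21 and 7.50 in BPN arrays 1 to 5. All 5 BPN arrays were above 7 and BPL was near the floor of the arrays, so no fold is given (-4.30 ± 0.17 SE, adjusted p = 1.06e-11). Complement genes were lower in 6 of 14 and higher in 0 (median -0.25); beside C1q these were the membrane regulators Cd55 (-0.75 ± 0.12 SE, adjusted p = 0.000352) and Cd59a (-0.46 ± 0.055 SE, adjusted p = 1.62e-05) and the C1 inhibitor Serping1 (-0.26 ± 0.07 SE, adjusted p = 0.0267), whose call was lost without BPL array 2 or 4 or BPN array 2 or 5 (adjusted p up to 0.0679).

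Il15, a cytokine that sustains natural killer and memory T cells, read 6.05, 6.17, 6.03, 6.02 and 5.90 in BPL arrays 1 to 5 and 9.33, 9.13, 9.50, 9.25 and 9.33 in BPN arrays 1 to 5. It was 9.67-fold lower in BPL (-3.27 ± 0.072 SE, adjusted p = 2.33e-15). Cxcl14, a chemokine, was 3.63-fold higher, with both probe sets called higher (1.86 ± 0.17 SE, adjusted p = 4.96e-07). Iron genes gave 2 calls of 14, both lower: the ferroxidase ceruloplasmin, Cp, read 6.65, 6.41, 6.64, 6.60 and 6.61 in BPL arrays 1 to 5 and 7.53, 7.86, 7.63, 7.43 and 7.51 in BPN arrays 1 to 5, 2.01-fold lower (-1.01 ± 0.12 SE, adjusted p = 1.15e-05), and Hfe, the MHC class I-like protein that sets hepcidin, was 1.89-fold lower (-0.92 ± 0.062 SE, adjusted p = 1.06e-08).

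Matrix genes other than collagens were lower in 9 of 39 and higher in 4 (median -0.12). Emilin2, a glycoprotein of elastic fibres, read 5.21, 4.91, 5.24, 5.10 and 5.21 in BPL arrays 1 to 5 and 7.02, 7.26, 6.40, 7.37 and 7.38 in BPN arrays 1 to 5, 3.87-fold lower (-1.95 ± 0.14 SE, adjusted p = 3.58e-08). Ccn2, the connective tissue growth factor, read 8.48, 8.52, 8.73, 8.64 and 9.09 in BPL arrays 1 to 5 and 9.43, 9.51, 9.15, 9.60 and 9.35 in BPN arrays 1 to 5, 1.64-fold lower (-0.72 ± 0.14 SE, adjusted p = 0.00239), and Thbs1, thrombospondin 1, 1.48-fold lower (-0.57 ± 0.12 SE, adjusted p = 0.00481). The matricellular protein Sparcl1 (-0.56 ± 0.063 SE, adjusted p = 8.23e-06) and the proteoglycan lumican, Lum (-0.41 ± 0.082 SE, adjusted p = 0.00317), were lower, while fibromodulin, Fmod, was 1.79-fold higher (0.84 ± 0.10 SE, adjusted p = 2.01e-05). Mmp3, stromelysin 1, read 4.55, 4.78, 4.72, 4.43 and 4.63 in BPL arrays 1 to 5 and 2.88, 3.24, 2.98, 2.99 and 2.97 in BPN arrays 1 to 5; BPN lay near the floor, so no fold is given (1.61 ± 0.11 SE, adjusted p = 1.64e-08). The fibrillar collagens were not called, at -0.37 ± 0.14 (SE, adjusted p = 0.121) for Col1a1 and -0.36 ± 0.11 (SE, adjusted p = 0.0562) for Col3a1. Of 14 collagens only Col15a1, a basement membrane collagen, was called (0.36 ± 0.086 SE, adjusted p = 0.0107); without BPL array 5 the count was 3, without BPL array 2 or BPN array 1 or 3 it was 2, and without BPN arrays 2 and 3 together it was 0. Sgca, the alpha-sarcoglycan of the dystrophin complex, was 1.72-fold higher (0.78 ± 0.073 SE, adjusted p = 8.65e-07) and the laminin receptor Itga6 lower (-0.39 ± 0.06 SE, adjusted p = 0.000261). The list of laminins, integrins and dystrophin-associated proteins had 4 higher and 3 lower of 24, 4 in all without BPL array 3 or BPN array 1. Fibroblast markers were lower in 4 of 9 (Gsn, Lum, Pi16 and Dpt; 1 of 9 where heart, kidney and liver arrays shared 1 fit) with a mean level of 9.20 to 9.44 in BPL and 9.46 to 9.71 in BPN, and their part in the matrix genes was not tested.

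The 30 genes most changed among those bright in at least 1 strain had groups that did not overlap, by the way they were chosen. Fmn1, formin 1, a nucleator of actin filaments, read 7.20, 7.17, 7.27, 7.47 and 7.24 in BPL arrays 1 to 5 and 2.74, 2.80, 2.78, 2.75 and 2.90 in BPN arrays 1 to 5. The BPN arrays lay below the lower quartile of every heart array and BPL well above the median (4.47 ± 0.075 SE, adjusted p = 4.69e-17). Plet1os, an antisense RNA, read 7.46, 7.69, 7.81, 7.43 and 7.57 in BPL arrays 1 to 5 and 3.92, 3.68, 3.82, 3.70 and 3.82 in BPN arrays 1 to 5, 14-fold higher (3.80 ± 0.077 SE, adjusted p = 9.12e-16); whether the probes tell it from the sense gene was not tested. Stbd1, which tethers glycogen to membranes, was higher by 3.00 ± 0.13 (SE, adjusted p = 2.04e-11), with BPN close to the floor and no fold given. Aqp6, an intracellular water and anion channel, was 6.30-fold higher (2.66 ± 0.091 SE, adjusted p = 1.18e-12), and Cyp4b1, a cytochrome P450, 5.46-fold higher (2.45 ± 0.09 SE, adjusted p = 3.08e-12). The other increases were Ptprn2, Ankrd33b, Slc6a16, Tmem87a, Gbp2b, Zfp146, Rbm45, H4c9, Bex1 and Cxcl14, between 1.86 and 3.26. Ptprn2 rested on 1 of 3 probe sets, the lowest of the others at 0.03, and Ankrd33b on 1 of 3, down to -0.22.

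Among the decreases, Tmem267, a membrane protein of unknown role, read 3.96, 4.04, 4.02, 3.76 and 4.17 in BPL arrays 1 to 5 and 7.84, 7.71, 7.88, 7.92 and 8.11 in BPN arrays 1 to 5, 15-fold lower (-3.90 ± 0.094 SE, adjusted p = 9.14e-15). Snap91, a clathrin adaptor of nerve endings, was 5.86-fold lower (-2.55 ± 0.10 SE, adjusted p = 3.67e-12), on 1 of 2 probe sets. Ggcx, the vitamin K-dependent carboxylase, was 4.47-fold lower (-2.16 ± 0.079 SE, adjusted p = 2.79e-12), and Cdh4, retinal cadherin, 3.97-fold (-1.99 ± 0.10 SE, adjusted p = 2.41e-10). Npl, which breaks down sialic acid, differed by -2.02 and Klhl32 by -2.14. Gm4841, an interferon-inducible GTPase, had the widest error (-2.44 ± 0.59 SE, adjusted p = 0.0119). Of 3958 genes with several probe sets, 961 had at least 1 called, and in 30 of these probe sets were called in both directions.

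Calls were also counted along the genome. In the RefSeq order of 18897 named genes, 16.3% of genes that followed a called gene were called (350 of 2149), against 10.8% of those that followed an uncalled gene (1802 of 16728). These shares were not tested, and what neighbours share (probes, regulation, inherited sequence) was not examined. The longest runs held 5 genes, and 13 runs held at least 4. Gm4951, Gm4841, F830016B08Rik, BC023105 and Smim3 formed one, all lower, in which BC023105 read 2.41, 2.70, 2.46, 2.48 and 2.72 in BPL arrays 1 to 5 and 3.76, 5.75, 6.01, 2.87 and 2.86 in BPN arrays 1 to 5; with BPN arrays 2 and 3 left out together, Gm4951 and BC023105 were not called. In the other, Lyrm4 (-0.85), Fars2 (-0.25), Nrn1 (-1.13), F13a1 (-0.31) and Ly86 (-0.91) were all lower; Fars2 lost its call without BPL array 3 or 4 or BPN array 3, 4 or 5. The run Psmb9, Tap1, Psmb8 and Tap2 is the immunoproteasome block of the MHC described above. Casp1, Casp4, Casp12 and Pdgfd, of which the first 3 are inflammatory caspases, were lower by -0.38, -0.25, -0.57 and -0.57. A further run held, in this order, Nnt (-0.27), the mitochondrial transhydrogenase, Paip1 (1.08), 4833420G17Rik (-1.32) and Tmem267.

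The same strains were compared in aorta, kidney and liver. Aorta RNA was amplified by another chemistry than the other tissues, and each tissue was fitted by itself. The aorta has 9 BPL and 5 BPN arrays where the study states 5 mice per strain, so some aorta arrays may share a mouse, and p-values over them may then be too small. Of the 3586 probe sets called in heart, 969 were called in the same direction in aorta (27% of the heart's and 24.4% of the aorta's 3971 calls, which were 10.3% of its probe sets), 691 in kidney (19.3% and 28.8% of 2396, a background of 6.24%) and 724 in liver (20.2% and 25.3% of 2866, a background of 7.47%). In opposite directions 141 were called in aorta, 124 in kidney and 148 in liver. All 4 tissues called 218 probe sets in 1 direction, and 1781 were called in heart alone. The heart's difference was then tested against the mean difference of kidney and liver in 1 fit of 44 arrays, treated as independent although tissues of 1 mouse may be among them. It found 2748 probe sets (7.16%), 1200 with the heart's difference higher and 1548 lower. These held 1451 of the heart's calls (40.5%).

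Fmn1 departed most, by 4.38 ± 0.14 (SE, adjusted p = 5.41e-26): BPL exceeded BPN by 4.47 in heart, 0.13 in kidney, 0.05 in liver and -0.32 in aorta. Snap91 went in opposite directions, -2.55 in heart and 1.89 in kidney, with a departure of -3.52 ± 0.12 (SE, adjusted p = 1.69e-25). Il15 (-3.27 in heart, -0.43 in kidney, -0.28 in liver) and Pygb (-1.99, -0.20 and -0.20) had larger decreases in heart, with departures of -2.92 ± 0.11 (SE, adjusted p = 8.64e-24) and -1.79 ± 0.10 (SE, adjusted p = 4.21e-17). Nppb (-0.66 ± 0.14 SE, adjusted p = 0.000921), Acta2 (1.48 ± 0.15 SE, adjusted p = 4.09e-10), Bdh1 (1.71 ± 0.12 SE, adjusted p = 5.5e-14), Rgs2 (1.41 ± 0.13 SE, adjusted p = 6.45e-11) and Kcnip2 (0.85 ± 0.10 SE, adjusted p = 6.18e-08) likewise departed from the other tissues. All of these genes were called in heart, and picking such genes favours a departure in the heart's direction. Gstp3, a glutathione transferase, was the reverse, higher by 1.44 in heart (a call lost without BPN array 5; 0.92 without BPL array 4), 3.92 in kidney and 5.25 in liver. BPL array 4, at 6.81 for Gstp3 against 3.83 to 4.59 in the other BPL arrays, was also the highest of its strain in the 4 liver markers (mean level 6.18 to 8.13 over BPL and 6.22 to 7.83 over BPN; albumin, Alb, at 12 there and 9.55 to 9.89 in the other BPL arrays). None of the 4 was called by limma (0 also at an unadjusted p below 0.05), and their part in the Gstp3 difference was not tested. In the class II genes H2-Ea (-0.38 ± 0.20 SE, adjusted p = 0.308) and H2-Ab1 (-0.42 ± 0.24 SE, adjusted p = 0.342) no departure was called: H2-Ea was lower by -4.10 in kidney, -3.48 in liver and -5.08 in aorta. The class I genes were less uniform, since H2-K1 was higher in BPL liver (1.17) and lower in heart (-0.77), a departure of -1.31 ± 0.16 (SE, adjusted p = 4.57e-08).

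**Figure D5:**
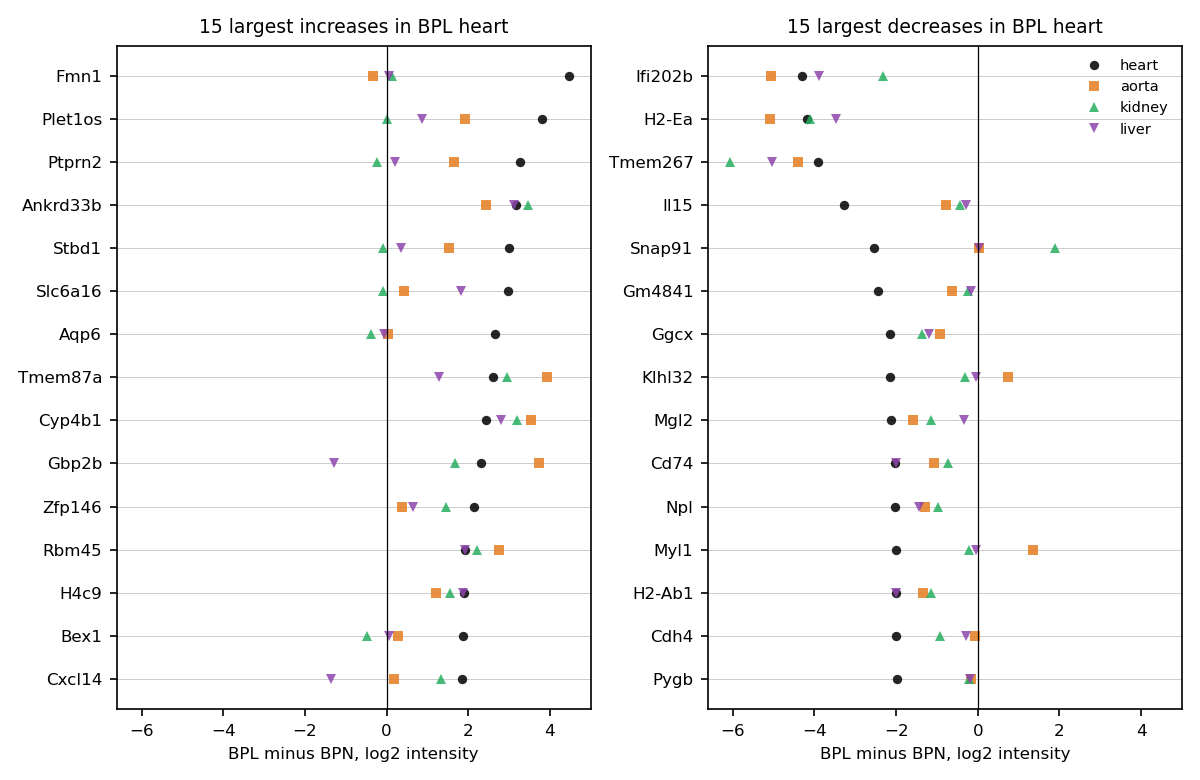
Log2 difference between BPL and BPN in heart (black circles), aorta (orange squares), kidney (green triangles) and liver (purple inverted triangles) for the 15 genes most increased (left) and most decreased (right) in BPL heart, selected on the heart values. Tmem87a, Cyp4b1, H2-Ea and Tmem267 lie on the same side in all 4 tissues, while the heart point of Fmn1, Ptprn2, Il15 and Pygb lies far from those of kidney and liver.

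BPH hearts were compared with the same 5 BPN arrays, so these differences share their controls and are given only side by side. In that comparison 2695 probe sets were called (7.02%). Tmem267 (BPL -3.90, BPH -4.06), Il15 (-3.27, -3.31), Sod2 (-1.09, -1.06), Slc12a2 (-1.12, -1.01), Bdh1 (1.79, 1.44) and Stbd1 (3.00, 2.65) had like values in both. Fmn1 (4.47, -0.03), Pygb (-1.99, -0.03), Ggcx (-2.16, -0.09), Ifi202b (-4.30, -0.21) and Hspb6 (-0.62, 0.02) differed from BPN in BPL and had values near 0 in BPH. Ddc (0.83, -0.70) and Acta2 (1.35, -0.42) had opposite signs. Nppb was -0.74 in BPL and -0.35 in BPH, where it was not called, and Ankrd1 was 0.44 and 1.23. The mean level of the MHC class I list was 7.26 in BPL, 7.25 in BPH and 7.73 in BPN. For MHC class II it was 6.03, 6.41 and 7.28, and for macrophage markers 6.53, 6.63 and 6.90. In these lists BPH thus lay nearer to BPL than to BPN.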

How the data were processed

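Heart RNA of 15 arrays (5 per strain) was compared, with kidney, liver and aorta as context. Per the labels' protocols, RNA was extracted with Trizol and columns, amplified to labelled cRNA (aorta: cDNA by another chemistry) and hybridised to custom 1-colour arrays. The deposited values are RMA intensity per probe set on a linear scale, named RMA by the submitters' processing notes with no version; the genome build is not given in the sources used here. From them log2 values (pseudocount 0) were computed. The 15 heart arrays entered a limma model (version 3.58.1, R 4.3.3) that gave each strain its own mean, with eBayes and Benjamini-Hochberg adjustment. The interaction used the 44 heart, kidney and liver arrays. The number of arrays limits the precision. The fit was tested on simulated data.

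GEO's platform table named 24478 probe sets with 1 gene, 65 with several and 13842 with none; 24237 were matched to RefSeq. A gene was read by its brightest probe set. No fold was given where a strain's mean lay below 3.32, the highest lower quartile of a heart array. Genes named in the text were the 15 largest called differences each way without overlap and with the higher strain above 4.72, members of the lists, the longest runs of neighbours (4 or more genes) and the 5 largest departures from kidney and liver; a few others were chosen after their values were seen. The comparison and the lists were chosen with earlier results of these data known. Alternatives are in the closing section; one was chosen after seeing the data. Same-numbered BPL and BPN arrays did not deviate together, so the numbers were not treated as pairs.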

Additional observations from a re-analysis of the deposited data

Results flagged for a closer look

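Within each strain, the 5 heart arrays of the genes described above were searched for 1 array set apart from the other 4. Of 386 sets of 5 arrays, 32 held such an array, where chance alone gives about 1 in 20. BPN array 2 was above the rest of its strain for Npl (7.03, others 6.49 to 6.62), the macrophage genes Adgre1 (7.65, others 7.03 to 7.15), C1qb (9.86, others 9.10 to 9.25), Cd163 (7.51, others 7.10 to 7.21) and Csf1r (8.43, others 8.26 to 8.28), the class I gene H2-M3 (7.01, others 6.67 to 6.74), Serping1 (11.02, others 10.66 to 10.76) and Casq2 (11.81, others 11.74 to 11.75), and below it for Itga6 (8.84, others 8.96 to 9.01).

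Among the other BPN arrays, array 3 was high for Nr3c2 (7.33, others 7.19 to 7.21) and low for Gsn (12.47, others 12.62 to 12.66) and Slc4a4 (7.22, others 7.28 to 7.29). Array 5 was high for Ggcx (7.82, others 7.75 to 7.77) and Ace (7.49, others 7.38 to 7.40) and low for Aqp6 (4.76, others 5.11 to 5.23). Array 4 was high for Itga1 (7.46, others 7.17 to 7.25), and array 1 low for Mlycd (8.93, others 9.05 to 9.09).

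Among BPL arrays, array 2 was low for Nppa (12.57, others 13.38 to 13.50) and Cp (6.41, others 6.60 to 6.65). Array 1 was low for Cx3cr1 (5.89, others 6.45 to 6.59), Cyba (8.36, others 8.57 to 8.60), Ddah2 (8.22, others 8.40 to 8.47), Hk1 (8.72, others 8.97 to 9.03) and Slc12a2 (8.08, others 8.31 to 8.37), and high for H2-D1 (6.69, others 6.35 to 6.43) and H2-Eb1 (8.07, others 7.89 to 7.93). Array 3 was high for Gm4841 (3.79, others 3.07 to 3.23). Array 4 was high for Gstp3 (6.81, others 3.83 to 4.59) and low for Cma1 (4.53, others 4.85 to 4.90). Array 5 was high for C1qa (9.32, others 9.21 to 9.24), Ednrb (7.12, others 6.86 to 6.93) and Itga1 (7.20, others 6.90 to 6.98).

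For 24 of the 30 genes most changed in heart, the heart's difference itself differed from the mean difference of kidney and liver (limma, adjusted p below 0.05 over all probe sets). Because these genes were chosen on their heart values, a departure in the heart's direction is favoured by the choice. Genes higher in BPL heart exceeded the other tissues by 4.38 for Fmn1, 3.36 for Plet1os, 3.26 for Ptprn2, 2.88 for Aqp6, 2.87 for Stbd1, 2.13 for Gbp2b, 2.11 for Slc6a16, 2.10 for Bex1, 1.87 for Cxcl14, 1.10 for Zfp146 and 0.49 for Tmem87a. Genes lower in BPL heart departed by -3.52 for Snap91, -2.92 for Il15, -2.23 for Gm4841, -1.96 for Klhl32, -1.87 for Myl1, -1.79 for Pygb, -1.39 for Mgl2, -1.39 for Cdh4, -1.20 for Ifi202b, -0.88 for Ggcx and -0.81 for Npl. In 2 genes the heart's difference was the smaller one: Cyp4b1, higher in BPL, departed by -0.55, and Tmem267, lower in BPL, by 1.66.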

How the results depend on the processing

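The count of 3586 called probe sets ranged from 2908 (without BPN replicate 2) to 3675 (without BPH replicate 3) when single arrays were left out, from 1253 to 1638 higher, from 1600 to 2037 lower and from 234 to 249 at 2-fold or more; list members called ranged from 135 to 159. Leaving out BPN arrays 2 and 3 together, chosen after seeing the data, gave 2254 calls, 985 higher and 1269 lower. A pseudocount of 16 left 135 at 2-fold or more. Testing 1 probe set per gene, which tests fewer features, gave 1029 higher and 140 at 2-fold or more. The share higher was 44.4%, 49.2% after quantile normalization and 37.9% after median centring. With the replicate number as a block 3206 were called, and 2578 in the comparison with kidney and liver against 2748; the numbers are no pairing known from the labels, and only BPL arrays 1 and 5 correlated best with the BPN array of their number. No called gene among those named or listed changed direction under the alternatives run. Of 190 named or listed genes called, 125 were called under each of them and 151 without each single array; the 30 most changed genes were called throughout. Counts of calls in some lists moved by over 1.5 times beyond what is given above. Trended robust variances gave 8 in place of 5 for hypertrophy and for the sarcomere and 5 in place of 2 for the respiratory chain, where a pseudocount of 16 also gave 5. Heat shock genes had 2 calls with the replicate block and 3 after quantile normalization, laminins and integrins 4 with the block, immediate early genes 4 after median centring, and vasoactive genes 2 with BPL and BPN arrays alone. Collagens had 3 calls with 1 probe set per gene. The number of arrays limits the small differences, and genes near the floor have no fold.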

Other observations

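Adipose genes varied widely between arrays of 1 strain. Ucp1, the uncoupling protein of brown fat, read 10.16, 5.12, 10.26, 10.68 and 8.29 in BPL arrays 1 to 5 and 4.48, 7.04, 4.05, 7.34 and 6.45 in BPN arrays 1 to 5, and was not called by limma (3.03 ± 0.96 SE, adjusted p = 0.0583). Adipoq, the hormone adiponectin of fat cells, read 9.45, 6.55, 9.57, 9.83 and 8.74 in BPL and 7.07, 8.62, 6.02, 7.75 and 9.38 in BPN. Of this list, Pck1, the enzyme of glyceroneogenesis in fat (1.96, adjusted p = 0.024 by limma), was called higher but lost the call without BPL array 1, 3 or 4 or BPN array 1 or 3 (adjusted p up to 0.0657). Lipe, the hormone-sensitive lipase, was called higher (0.51, adjusted p = 0.0137). BPL array 2 was the lowest of its strain in all 4 genes and also low in the atrial genes Myl7 (11.43, other BPL arrays 12.87 to 13.07) and Sln (9.86, other BPL arrays 11.68 to 11.97).

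Of 9 mesothelial and epicardial markers, Upk1b (-0.89, adjusted p = 0.00161 by limma) and Tbx18 (-0.54, adjusted p = 0.00375) were called lower in BPL and 8 had negative differences. Endothelial markers were near 0 (median 0.01), with 0 of 12 called by limma, 2 at an unadjusted p below 0.05, and 1 called without BPL array 4. In the circadian list, Tef, a clock-controlled transcription factor (-0.51, adjusted p = 0.0105), and Cry2, a clock repressor (-0.25, adjusted p = 0.0323), were 2 calls of 18, both lower; without BPN array 5 there were 4 calls, and 1 call without BPL array 1 or 2 or BPN array 1 or 2. Autophagy genes gave 2 of 16 lower, Sqstm1, a cargo receptor (-0.22, adjusted p = 0.0179), and Becn1, which starts autophagosomes (-0.31, adjusted p = 0.0194); 1 call was left without BPL array 3 or BPN array 1 or 5, and 3 were made without BPH array 3 or 5, which enter through the shared spread. In the cholesterol list, the synthesis enzyme Cyp51 was higher (0.30, adjusted p = 0.0252) and the exporter Abca1 lower (-0.34, adjusted p = 0.00632), 2 of 13, of which 1 was left without BPL array 4 or 5 or BPN array 1, 2 or 4.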
